A study of Mus musculus with 2 samples.

Results

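The enzymes that activate fatty acids and burn them by beta-oxidation were followed as a set of 33 genes in the nuclei of epididymal white adipose tissue (WAT) from obese mice. The members were the table entries with the listed symbols, 33 of the 32285 genes counted in each library, and all 33 had at least 1 count in the kept nuclei of both libraries. By the place where their proteins are known to act, 4 activate fatty acids, 19 are mitochondrial, 7 are peroxisomal and 3 are found in both organelles.

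A fatty acid is first joined to coenzyme A by an acyl-CoA synthetase. The carnitine shuttle then carries the chain into mitochondria, where repeated cycles of dehydrogenation, hydration, a second oxidation and thiolysis release acetyl-CoA and pass electrons to the respiratory chain. Peroxisomes run a parallel cycle on very long, branched and dicarboxylic chains and export the shortened products, and white fat cells do both while storing most of their fatty acids as triglyceride.

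Both groups were male C57BL/6N mice, 8 weeks old at the start, that ate a high-fat diet for 6 weeks and for 8 weeks more while they were injected intraperitoneally 3 times a week. The controls received PBS (HF-PBS), and the others received homoharringtonine (HF-HHT), a plant alkaloid that stops protein synthesis at the ribosome and is given against leukemia. Tissue of 3 mice was pooled for the single library of each group, so no difference given here has a replicate check, and none was tested. Intervals are exact 95% intervals that cover counting error only, and the mice, the pooling, the nuclei and the library of a group cannot be told apart from its treatment.

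The libraries held 76197757 and 73313558 unique molecular identifiers (UMIs, 1 per captured RNA molecule) in HF-PBS and HF-HHT, and 6659 and 6445 nuclei were kept at a median of 4307 and 3971 UMIs. Of the 7737 and 7605 barcodes called as nuclei, 20 occurred in both libraries. Classes of nuclei were named by marker genes, and levels are in CPM, the part a gene takes of all UMIs of the class, on a scale where 1% is 10000 CPM. Of 12 adipocyte markers, 11 were found in at least 10% of the nuclei of the adipocyte-like cluster and above the typical cluster. Its 149 and 842 nuclei held the 12 markers at a summed 28532 and 35606 CPM and are called adipocytes below. Adipose progenitor-like nuclei (755 and 668) are called APCs, and macrophage-like nuclei (3596 and 2222) macrophages. The other classes are named from their markers in the same sense, and paired values give HF-PBS first. Without the upper limits set on UMIs and genes per nucleus, the adipocyte cluster held 295 and 1173 nuclei at medians of 20828 and 15038 UMIs. The limits thus took out deep adipocytes, and unequally between the libraries. Free RNA, the content of barcodes that hold no nucleus, was estimated at 4.88% and 3.82% of adipocyte UMIs, 9.83% and 16.7% of APC UMIs and 6.81% and 6.83% of macrophage UMIs. Each estimate is the lowest ratio of another class's summed markers in the nuclei to their level in free RNA. For adipocytes it came from unlike lists, T or NK markers in HF-PBS and mesothelial markers in HF-HHT.

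A gene was measured in a class at 20 or more UMIs over both libraries, and a call of higher or lower stands for a CPM ratio of 1.5-fold or more, a size that carries no test. The sum of all 33 members made up 0.147% of the UMIs of kept nuclei in HF-PBS and 0.306% in HF-HHT. Adipocytes, where 16 members (HF-PBS) and 19 members (HF-HHT) had their highest level, were 149 of the nuclei of the first library and 842 of the second.

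The promoters of the members were read to show what the genes share outside these libraries. RefSeq promoters on GRCm38.p6, from 250 bases before to 50 after the start, were at hand for 26 of the 33 members, and 4 of the 26 held the motif of nuclear respiratory factor 1 (Nrf1, a regulator of nuclear genes for mitochondria), searched on both strands as GCGCA, any base and GCGC, against 5.19% of 27025 genes with a promoter. The 4 are given with the motif in capitals because the electron transfer genes Etfb and Etfdh are among them, while the window of Etfa, the other such gene, held none.
Acad10: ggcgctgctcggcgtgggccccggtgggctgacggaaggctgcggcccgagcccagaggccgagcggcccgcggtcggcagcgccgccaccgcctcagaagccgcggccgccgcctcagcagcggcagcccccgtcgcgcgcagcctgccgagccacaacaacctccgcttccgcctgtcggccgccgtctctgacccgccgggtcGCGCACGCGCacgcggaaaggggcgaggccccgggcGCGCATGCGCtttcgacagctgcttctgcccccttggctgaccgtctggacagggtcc
Etfb: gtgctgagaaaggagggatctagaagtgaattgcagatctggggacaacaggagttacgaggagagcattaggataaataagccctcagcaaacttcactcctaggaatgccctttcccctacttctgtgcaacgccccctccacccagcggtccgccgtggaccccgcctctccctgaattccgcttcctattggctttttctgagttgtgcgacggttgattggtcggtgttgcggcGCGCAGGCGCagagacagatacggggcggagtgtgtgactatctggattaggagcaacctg
Etfdh: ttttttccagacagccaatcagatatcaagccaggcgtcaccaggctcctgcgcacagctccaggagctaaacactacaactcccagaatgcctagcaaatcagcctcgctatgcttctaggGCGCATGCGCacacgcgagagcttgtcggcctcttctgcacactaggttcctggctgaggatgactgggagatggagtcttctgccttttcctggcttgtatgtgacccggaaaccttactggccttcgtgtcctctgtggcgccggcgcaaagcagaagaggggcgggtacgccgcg
Abcd3: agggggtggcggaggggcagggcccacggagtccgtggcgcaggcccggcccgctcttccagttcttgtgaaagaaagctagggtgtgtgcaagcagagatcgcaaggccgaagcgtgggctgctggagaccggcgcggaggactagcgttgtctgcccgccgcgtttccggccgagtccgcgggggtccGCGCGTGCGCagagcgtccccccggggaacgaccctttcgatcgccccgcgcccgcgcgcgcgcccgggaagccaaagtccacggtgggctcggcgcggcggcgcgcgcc
The Acad10 promoter (chromosome 5, 121660461 to 121660760, minus strand) held the motif 44 and 8 bases before the start. In Etfb (chromosome 7, 43443822 to 43444121, plus strand) it lay 11 bases before the start. Etfdh (chromosome 3, 79628718 to 79629017, minus strand) held it 128 bases before the start, and Abcd3 (chromosome 3, 121815253 to 121815552, minus strand) 60 bases before it. The direct repeat bound by peroxisome proliferator-activated receptors, AGGTCA with any base before a further AGGTCA, was in 0 of the 26 windows and in 0.0481% of genes, the estrogen-related receptor motif TNAAGGTCA in 0 and 1.43%, and the E-box CACGTG in 0 and 8.09%. A match is a description of the sequence and not a binding site, and the missing ones say only that those letters were not in these windows.

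A pair of members shares a start region. Hadha and Hadhb, the alpha and beta subunits of the mitochondrial trifunctional protein, lie head to head on chromosome 5, Hadha from 30118304 to 30155162 on the minus strand and Hadhb from 30155248 to 30184593 on the plus strand (GRCm38). The window of Hadhb, from 30155003 to 30155302, is shown with the 85 bases between both starts in capitals, because this is the stretch both genes share.
Hadhb: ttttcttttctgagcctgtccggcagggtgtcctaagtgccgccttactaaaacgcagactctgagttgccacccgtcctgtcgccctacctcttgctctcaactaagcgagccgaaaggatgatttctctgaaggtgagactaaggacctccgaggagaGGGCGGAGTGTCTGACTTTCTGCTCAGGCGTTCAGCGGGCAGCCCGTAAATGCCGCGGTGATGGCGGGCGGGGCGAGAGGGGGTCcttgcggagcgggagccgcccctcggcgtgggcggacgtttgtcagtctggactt
Ehhadh, the peroxisomal member with the largest ratio in adipocytes, is given as a window (chromosome 16, 21787785 to 21788084, minus strand) in which none of the 4 motifs occurred.
Ehhadh: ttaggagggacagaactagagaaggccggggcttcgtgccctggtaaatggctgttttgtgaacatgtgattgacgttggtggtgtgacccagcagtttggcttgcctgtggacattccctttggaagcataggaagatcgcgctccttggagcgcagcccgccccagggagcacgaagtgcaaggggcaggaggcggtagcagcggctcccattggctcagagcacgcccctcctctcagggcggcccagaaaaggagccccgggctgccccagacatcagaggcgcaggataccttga

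In adipocytes the median ratio of the members lay above that of all genes, while the count of members called higher depended on scaling. All 33 were measured, 17 were called higher and 0 lower, against 35.6% higher and 12.2% lower among the 12559 genes measured in this class. The median log2 ratio of HF-HHT over HF-PBS was 0.59 over the members and 0.31 over all genes, so the members' median was 0.28 above the general one. Trimmed-mean (TMM) factors move every ratio by −0.19 in each of the 3 classes described here and leave 10 members called higher and 1 lower, against 28.5% and 16.6% of all genes. At 10 of 33, the members called higher were then near the general share. Mitochondrial and peroxisomal members had much the same median, with 10 of 19 and 4 of 7 called higher and medians of 0.59 and 0.60. Summed over genes, the mitochondrial members went from 1199 to 1805 CPM and the peroxisomal ones from 854 to 1736 CPM. Much of both rises came from few genes. Adhfe1 went from 33.5 to 332 CPM in the first sum, and Abcd2 from 327 to 928 CPM and Ehhadh from 83.3 to 326 CPM in the second. The members with the largest ratios were Adhfe1, Ehhadh, Acad10, Acad11 and Abcd2, of which Acad10 and Adhfe1 are taken as mitochondrial, Ehhadh and Abcd2 as peroxisomal and Acad11 as both. Free RNA was estimated at no more than 28.1% of the UMIs of any member in HF-PBS adipocytes and 10.8% in HF-HHT adipocytes.

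**Figure D1:**
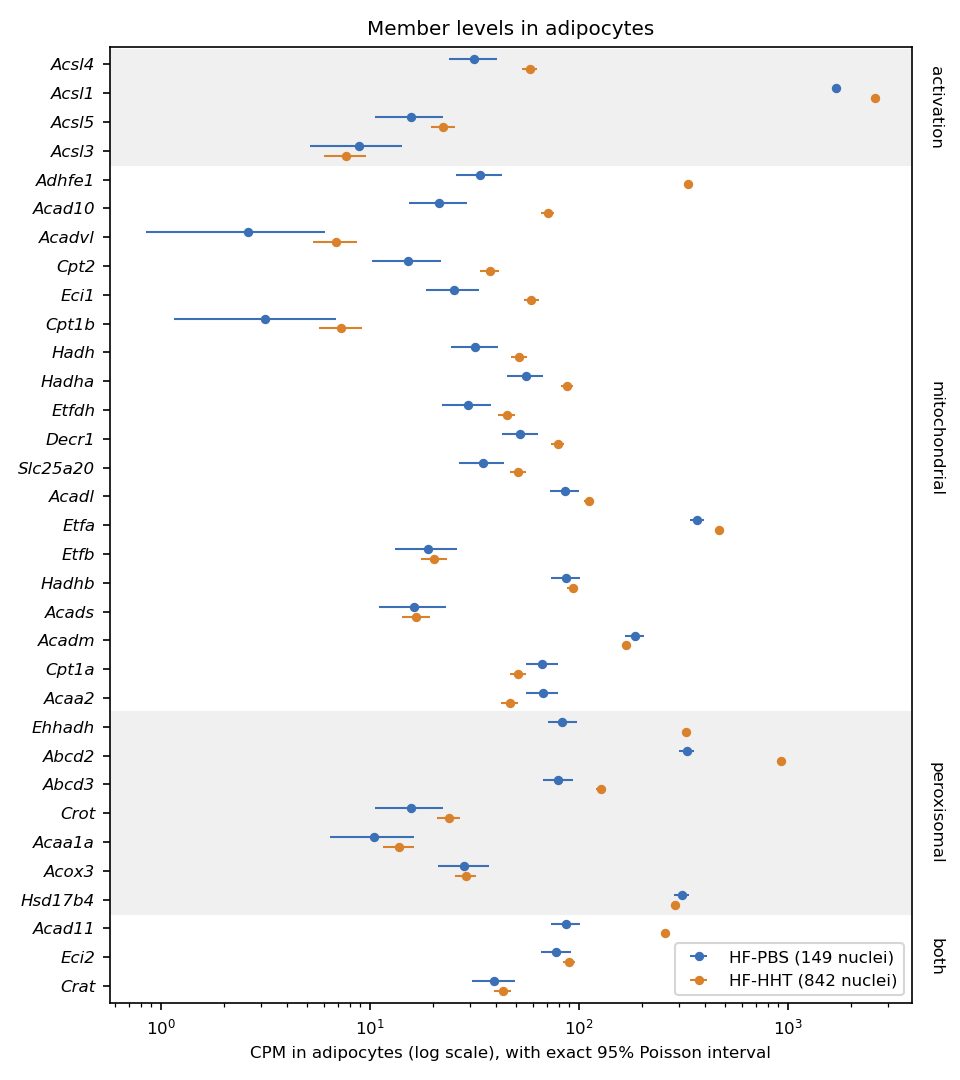
Level of each member in adipocytes in CPM on a log scale, with exact 95% Poisson intervals, blue for the 149 nuclei of HF-PBS and orange for the 842 of HF-HHT, grouped by compartment. Adhfe1 is at 33.5 and 332 CPM and Ehhadh at 83.3 and 326 CPM, while Acaa2 and Cpt1a lie lower in HF-HHT without reaching 1.5-fold.

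The adipocyte class also differed between the libraries in markers of another cell. The 11 macrophage markers, all with at least 1 UMI in both libraries, summed to 1604 (HF-PBS) and 170 CPM (HF-HHT) in adipocytes, of which Mertk, an efferocytosis receptor, gave 1382 and 127 CPM and the other 10 gave 222 and 43.1 CPM. In macrophages the same list summed to 6977 and 4990 CPM. The 12 APC markers summed to 1720 and 1046 CPM in adipocytes. In the direction of the members, 10 erythroid markers summed to 7.34 and 156 CPM, with 4 and 10 of them detected, and 8 multiciliated markers to 3.14 and 14.8 CPM, with 4 and 8 detected. The part of any of these lists in the differences of the members was not tested.

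Activation came first in order of the pathway. Acsl1, the main long-chain acyl-CoA synthetase of fat cells, was at 1696 (HF-PBS) and 2594 CPM (HF-HHT) in adipocytes, from 3236 and 25765 UMIs. HF-HHT was higher by 0.61 on the log2 scale, with an interval from 0.56 to 0.67, and the library intervals did not overlap. This value sits just past the 1.5-fold limit, and it fell short of the limit with TMM factors and, at 0.31, with both adipocyte sub-clusters weighted equally. Acsl4, which prefers arachidonate, was at 31.4 and 58.0 CPM, a log2 ratio of 0.88 from 0.50 to 1.29, and was also higher in HF-HHT. Acsl5, a synthetase of mitochondria and endoplasmic reticulum, was at 15.7 and 22.5 CPM, and Acsl3, of the endoplasmic reticulum and lipid droplets, at 8.91 and 7.65 CPM, and for both the intervals of the libraries overlapped.

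The carnitine shuttle split. Cpt2, the inner-membrane transferase that rebuilds acyl-CoA in the matrix, was at 15.2 (HF-PBS) and 37.5 CPM (HF-HHT) (29 and 372 UMIs), a log2 ratio of 1.30 from 0.75 to 1.90. Cpt1b, the muscle-type form of the outer-membrane transferase, was at 3.14 and 7.25 CPM, but from 6 and 72 UMIs, so that its log2 ratio of 1.21 had an interval from 0.01 to 2.70. Cpt1a, the liver-type form of that transferase and the step that malonyl-CoA blocks, went the other way, with 66.6 and 50.8 CPM and a log2 ratio of −0.39 from −0.67 to −0.10. That is under 1.5-fold, so Cpt1a is not called lower, though the interval of the ratio lies below 0. Slc25a20, the translocase that moves acylcarnitine inward, was at 34.6 and 50.9 CPM, just under the limit. Crat, which makes acetylcarnitine, was at 39.3 and 43.2 CPM, with overlapping intervals.

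Among the acyl-CoA dehydrogenases, which catalyze the first oxidation of each cycle, the enzymes named for chain length mostly had small ratios. Acadl, which takes long chains in the mouse, was at 85.4 and 112 CPM, Acadm, for medium chains, at 185 and 169 CPM, and Acads, for short chains, at 16.2 and 16.6 CPM. None of the 3 reached 1.5-fold, and the intervals of Acadm and Acads overlapped. Acadvl, the very-long-chain enzyme of the inner membrane, was called higher at 2.62 and 6.85 CPM, but from 5 and 68 UMIs, and its log2 ratio of 1.39 had an interval from 0.09 to 3.05.

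Acad10 and Acad11, family members that also carry a kinase-like domain, had clear differences. Acad10 was at 21.5 (HF-PBS) and 70.9 CPM (HF-HHT) (41 and 704 UMIs), a log2 ratio of 1.72 from 1.27 to 2.21. Acad11 was at 86.5 and 259 CPM (165 and 2573 UMIs), a log2 ratio of 1.58 from 1.36 to 1.82. Both were higher in HF-HHT without overlap of the intervals. Ackr4 lies on the other strand of Acad11 and held 14 and 188 UMIs, and since no source used here gives the strand used in counting, its reads and those of Acad11 could mix. Acad12, a close relative of Acad10, was at 30.9 and 59.3 CPM.

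The later steps in mitochondria were mixed. Hadha, whose subunit hydrates and oxidizes long chains, was at 55.5 and 87.6 CPM, a log2 ratio of 0.66 from 0.36 to 0.96. Its neighbor Hadhb, whose subunit is the long-chain thiolase, was at 86.5 and 93.1 CPM, a log2 ratio of 0.11 from −0.13 to 0.35, so the head-to-head pair had unequal ratios, although the difference between them was not tested. Hadh, the dehydrogenase for shorter hydroxyacyl-CoA, was at 32.0 and 51.8 CPM and was called higher. At the 1.5-fold limit Hadha kept its call under 6 of 12 alternatives and Hadh under 7. Acaa2, the mitochondrial thiolase of the last step, was at 67.1 and 46.7 CPM, a log2 ratio of −0.52 from −0.81 to −0.23, the lowest of the 33 members in adipocytes. It is not called lower at 1.5-fold, but it was with TMM factors.

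Unsaturated chains need helper enzymes to enter the cycle. Eci1, the mitochondrial enoyl-CoA isomerase, was at 25.2 (HF-PBS) and 59.2 CPM (HF-HHT) (48 and 588 UMIs), a log2 ratio of 1.23 from 0.81 to 1.69. Decr1, the dienoyl-CoA reductase, was at 52.4 and 78.9 CPM, just past the limit at 0.59 from 0.29 to 0.91. Eci2, an isomerase found in both organelles, was at 77.6 and 89.2 CPM with overlapping intervals. Eci1 was thus called higher under every alternative tried, and Decr1 was not.

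Electron transfer flavoprotein collects electrons from all the dehydrogenases. Etfa, its alpha subunit, was at 368 and 469 CPM, a log2 ratio of 0.35 from 0.24 to 0.47, and Etfb, its beta subunit, at 18.9 and 20.3 CPM, with overlapping intervals. Etfdh, the oxidoreductase that hands these electrons to ubiquinone, was at 29.3 (HF-PBS) and 45.2 CPM (HF-HHT), a log2 ratio of 0.62 from 0.22 to 1.05. Only Etfdh of the 3 is called higher, and it lost that call with TMM factors.

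In peroxisomes, entry and the bifunctional step stood out. Abcd2, a half-transporter that brings very-long-chain acyl-CoA across the peroxisomal membrane, was at 327 (HF-PBS) and 928 CPM (HF-HHT) in adipocytes (624 and 9214 UMIs), a log2 ratio of 1.504 from 1.39 to 1.62. Ehhadh, the L-bifunctional enzyme that hydrates and oxidizes in 1 protein and is needed for dicarboxylic chains, was at 83.3 and 326 CPM (159 and 3237 UMIs), a log2 ratio of 1.97 from 1.74 to 2.21. Abcd3, the transporter of branched and dicarboxylic acyl-CoA, was at 79.7 and 127 CPM, a log2 ratio of 0.68 from 0.43 to 0.93. All 3 were higher in HF-HHT without overlap of the intervals. At the 1.5-fold limit Abcd2 and Ehhadh kept the call under every alternative, and Abcd3 under 9 of 12.

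The other peroxisomal members showed smaller differences. Hsd17b4, the D-bifunctional enzyme that serves very long and branched chains, was at 310 and 289 CPM with overlapping intervals. Acox3, an oxidase of branched chains, was at 28.3 and 28.7 CPM, and Acaa1a, the peroxisomal thiolase, at 10.5 and 13.8 CPM. For Acaa1a the near copy Acaa1b was at 34.1 and 33.4 CPM, so reads could be split between them, and Myd88 and Slc22a14 overlap it on the other strand. Crot, which makes the medium-chain acylcarnitine that leaves the peroxisome, was called higher at 15.7 and 23.9 CPM, but its library intervals overlapped.

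Adhfe1 had the largest ratio of the set. It encodes a mitochondrial transhydrogenase that oxidizes gamma-hydroxybutyrate, and it is not itself a step of beta-oxidation. The gene lies on chromosome 1 from 9547948 to 9580673 on the plus strand (GRCm38), and the partner 2610203C22Rik on the other strand held 6 and 85 UMIs. Adhfe1 was at 33.5 (HF-PBS) and 332 CPM (HF-HHT) in adipocytes, from 64 and 3295 UMIs. That is 9.89-fold, a log2 ratio of 3.31 from 2.95 to 3.69.

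**Figure D2:**
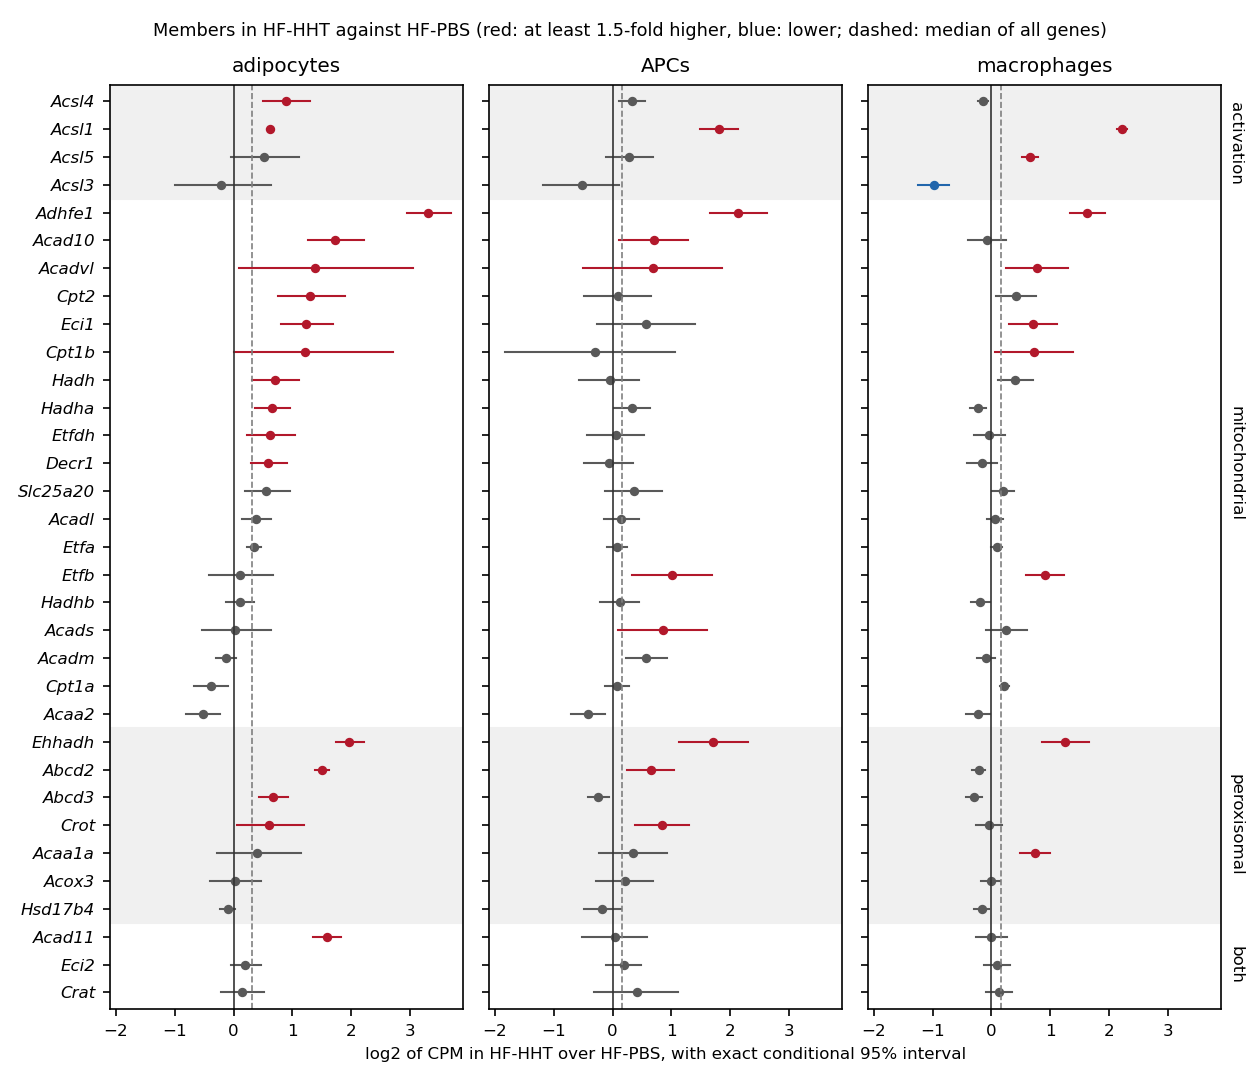
Log2 ratio of CPM in HF-HHT over HF-PBS for each member (rows) in adipocytes, APCs and macrophages, with exact conditional 95% intervals; red points are at least 1.5-fold higher, blue lower, and the dashed line is the median of all genes measured (0.31, 0.16 and 0.16). Adhfe1 and Ehhadh lie to the right in all 3 panels, and Acsl1 has its largest ratio of the 3 classes in macrophages.

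The same UMIs were also read as shares of nuclei. To set nuclei of unequal depth side by side, each was thinned to 4000 UMIs, which 143 of 149 HF-PBS adipocytes and 795 of 842 HF-HHT adipocytes allowed. An Adhfe1 UMI was then found in 11.9% (exact binomial interval 7.08 to 18.4%) of HF-PBS adipocytes and in 69.1% (65.7 to 72.3%) of HF-HHT adipocytes, and in 28.2% and 86.6% without thinning. In macrophages, taken as a class that should hold little of it, the thinned shares were 2.76% and 8.15%, and the unthinned ones 3.59% and 8.55%, at median depths of 4944.5 and 4101 UMIs against 13070 and 11550 UMIs in adipocytes.

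Other members followed in the same way. Ehhadh was found in 20.3% and 59.2% of thinned adipocytes (40.3% and 78.5% unthinned), against 1.42% and 4.12% of thinned macrophages. Acad11 was in 25.9% and 55.7% (47.0% and 77.6% unthinned), against 6.49% and 4.73% of macrophages, and Acad10 in 6.99% and 24.4% (20.8% and 47.9% unthinned), against 4.40% and 3.77%. Abcd2 was in 53.8% and 86.4% (74.5% and 91.6% unthinned), against 26.8% and 23.05% of macrophages. For these 5 genes the share of adipocyte nuclei with at least 1 UMI was thus higher in HF-HHT at equal depth, without overlap of the intervals. They were picked for the largest CPM ratios, and the shares come from the same UMIs, so this is a description and not separate evidence. The binomial intervals count nuclei of 1 pooled library per group and do not cover differences between mice. Cpt1a was in 28.0% and 14.97% of thinned adipocytes (47.0% and 36.1% unthinned), without overlap of the intervals.

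**Figure D3:**
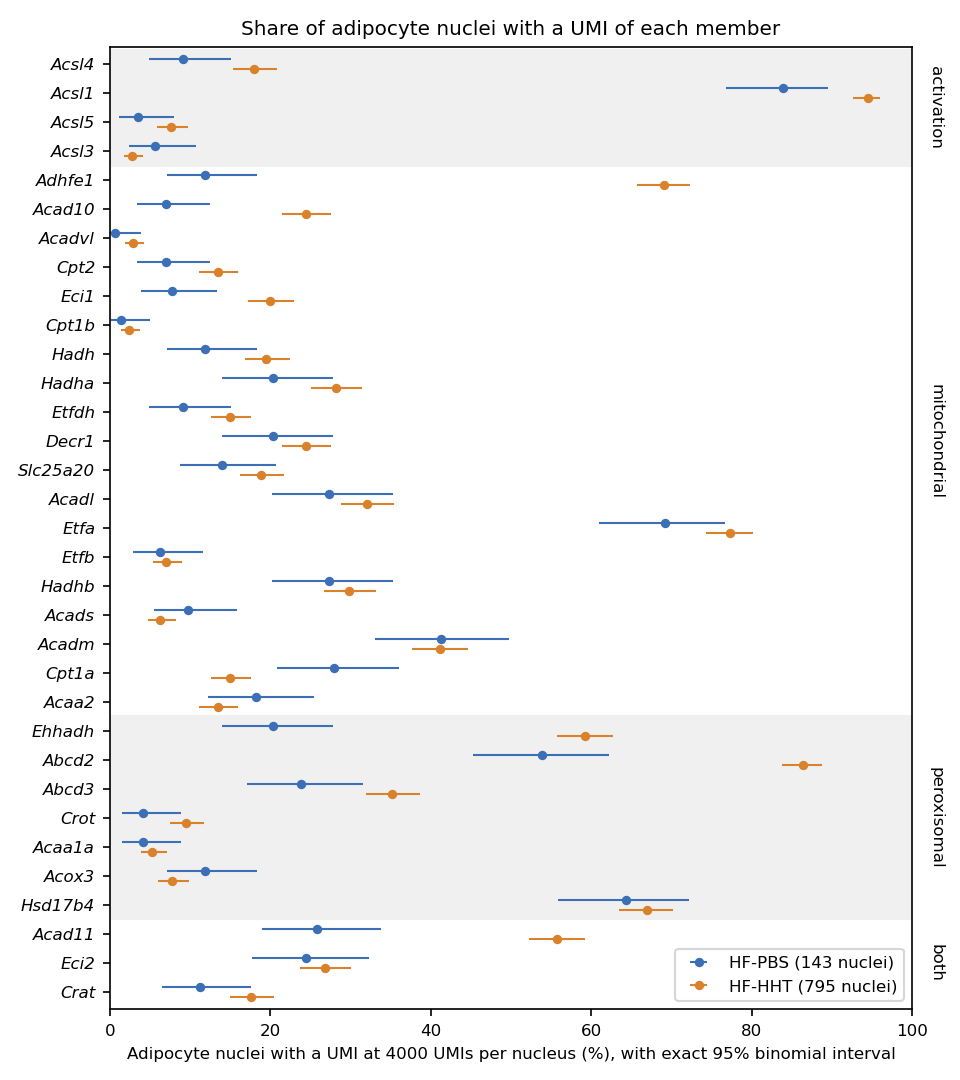
Percent of adipocyte nuclei with at least 1 UMI of each member after thinning to 4000 UMIs per nucleus, with exact 95% binomial intervals, for HF-PBS (143 nuclei) and HF-HHT (795 nuclei). Adhfe1 goes from 11.9 to 69.1% and Acad11 from 25.9 to 55.7%, and Cpt1a from 28.0 to 14.97%.

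Finer clustering gave 2 adipocyte sub-clusters. Sub-cluster 13, led by Fam13a, Adrb3, Cyp2e1, Acsm5 and Acvr1c among others, held 34 nuclei of HF-PBS with 344 of HF-HHT, while sub-cluster 8, led by Ptchd4, Pex5l and Trdn among others, held 115 and 498. The mixture of both thus differed between the libraries. In sub-cluster 13, 13 members were called higher and 1 lower, with a median of 0.30 against 0.11 over all genes, and in sub-cluster 8, 16 were higher and 0 lower, with medians of 0.54 and 0.32. Of all genes, 29.7% were higher and 17.4% lower in sub-cluster 13, and 35.5% and 11.4% in sub-cluster 8.

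Acsl1 turned with the sub-cluster. It was at 3796 (HF-PBS) and 3021 CPM (HF-HHT) in sub-cluster 13, a log2 ratio of −0.33 from −0.42 to −0.24. In sub-cluster 8 it was at 1269 and 2358 CPM, a ratio of 0.89 from 0.83 to 0.96. The ratio was thus below 0 in the first, though under 1.5-fold and so not called lower, and was called higher in the second. The difference between both ratios was not tested. Within HF-PBS the gene was lower in sub-cluster 8 than in sub-cluster 13 by a log2 ratio of −1.58, against −0.36 within HF-HHT.

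The 5 members with the largest ratios kept their direction in both. Adhfe1 was at 80.6 and 452 CPM in sub-cluster 13 and at 24.0 and 265 CPM in sub-cluster 8. Ehhadh was at 127 and 389 CPM in the first and 74.4 and 291 CPM in the second. Abcd2 was at 223 and 1018 CPM and at 348 and 878 CPM, and Acad11 at 152 and 317 CPM and at 73.1 and 227 CPM. In each case HF-HHT was at least 1.5-fold higher. Acad10 was at 3.102 CPM in HF-PBS in sub-cluster 13 from 1 UMI, and at 83.3 CPM in HF-HHT, a log2 ratio of 4.75 with a wide interval from 2.26 to 10.1, and at 25.2 and 64.0 CPM in sub-cluster 8. Cpt1a was at 21.7 and 39.3 CPM in sub-cluster 13, from 7 UMIs in HF-PBS, a log2 ratio of 0.86 from −0.23 to 2.20. In sub-cluster 8 it was at 75.7 and 57.2 CPM, a ratio of −0.40 from −0.70 to −0.09. The first interval holds 0, so the sign of Cpt1a in sub-cluster 13 is not settled.

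**Figure D4:**
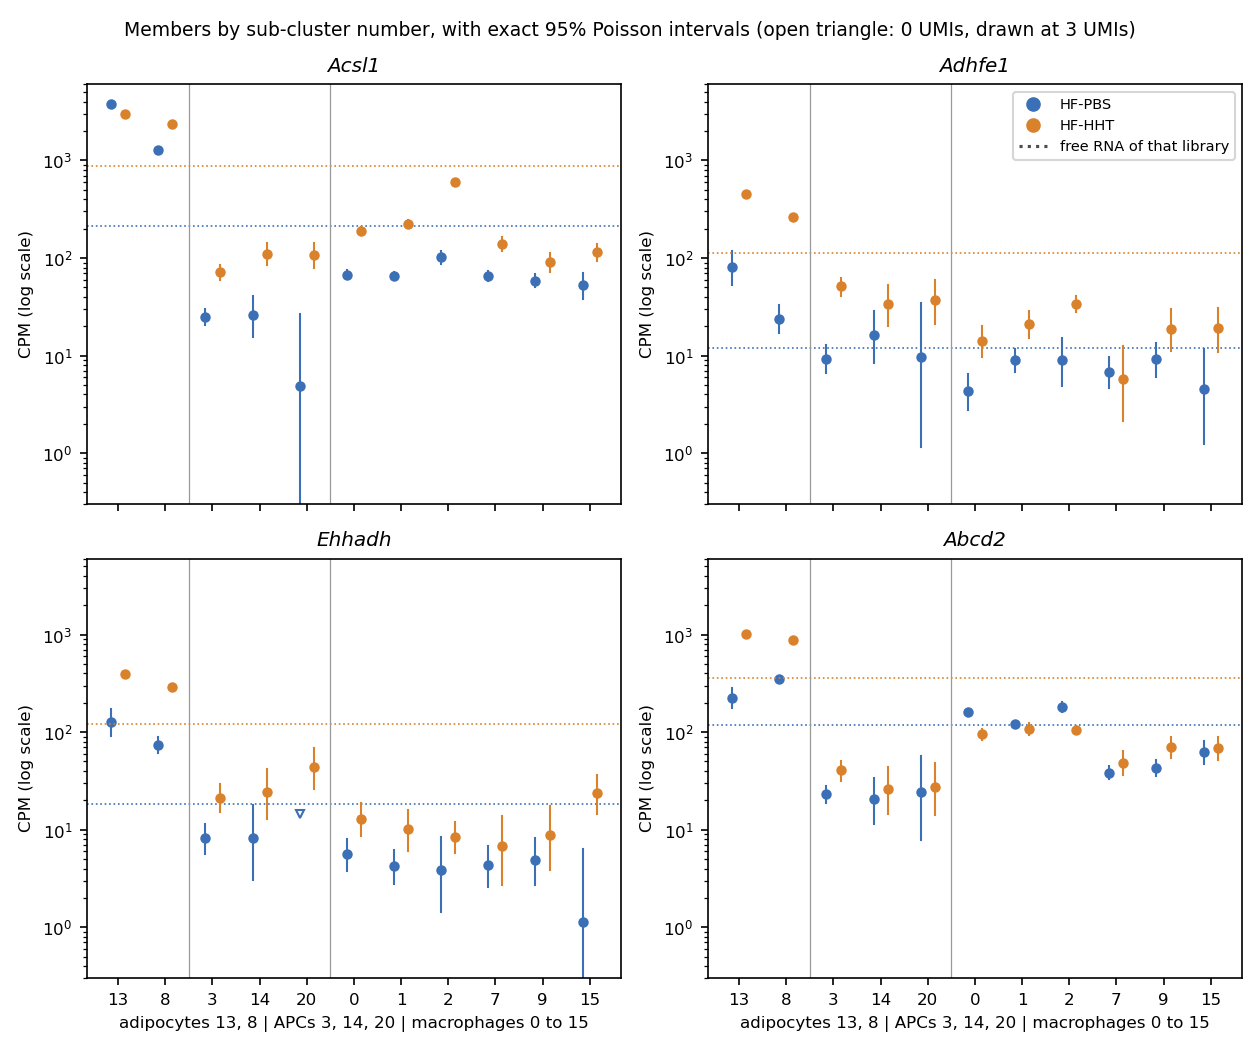
Level of Acsl1, Adhfe1, Ehhadh and Abcd2 in CPM on a log scale in the sub-clusters of adipocytes, APCs and macrophages, with exact 95% Poisson intervals for HF-PBS (blue) and HF-HHT (orange) and dotted lines at the level in free RNA. Acsl1 in adipocyte sub-cluster 13 (3796 and 3021 CPM) has a ratio below 0 but under 1.5-fold, and it is higher in HF-HHT in all 6 macrophage sub-clusters.

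Levels over the classes were read for each gene on its own. Acsl1 in HF-PBS was 1696 CPM in adipocytes and 77.3 CPM in B cells, the next class, and in HF-HHT 2594 CPM and 372 CPM in the erythroid class. Finer clustering put 0 HF-PBS and 116 HF-HHT nuclei in an erythroid sub-cluster, and 51 and 123 low-depth nuclei in an unnamed one led by Col1a1, Lars2 and Cmss1, so the 51 HF-PBS nuclei of the erythroid class are not shown to be erythroid. Adipocytes were far above the next class for Abcd2, with 327 CPM against 106 CPM in macrophages in HF-PBS, and 928 CPM against 93.5 CPM in erythroid cells in HF-HHT. For Adhfe1 the next class was mesothelial cells at 16.0 CPM in HF-PBS and, in HF-HHT, duct epithelium at 86.8 CPM, a class of 689 nuclei with 0 nuclei in HF-PBS. Ehhadh, Hsd17b4, Acadm, Etfa, Acad11 and Eci1 were likewise highest in adipocytes in both libraries.

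Some members had their highest level elsewhere. Acsl4 was highest in mesothelial cells, the lining of the fat pad, at 521 CPM in HF-PBS. In HF-HHT it was at 169 CPM in mesothelial cells and at 167 CPM in macrophages, which are not apart. Crot was highest in T and NK cells, at 87.4 and 102 CPM, and Acaa2 in APCs, at 69.3 and 52.0 CPM, although adipocytes followed at 67.1 and 46.7 CPM. Cpt1a was at 165 CPM in monocytes and dendritic cells and at 164 CPM in macrophages of HF-PBS, which are not apart, and at 191 CPM in macrophages of HF-HHT. Slc25a20 was highest in monocytes and dendritic cells in both libraries, at 107 and 61.9 CPM.

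**Figure D5:**
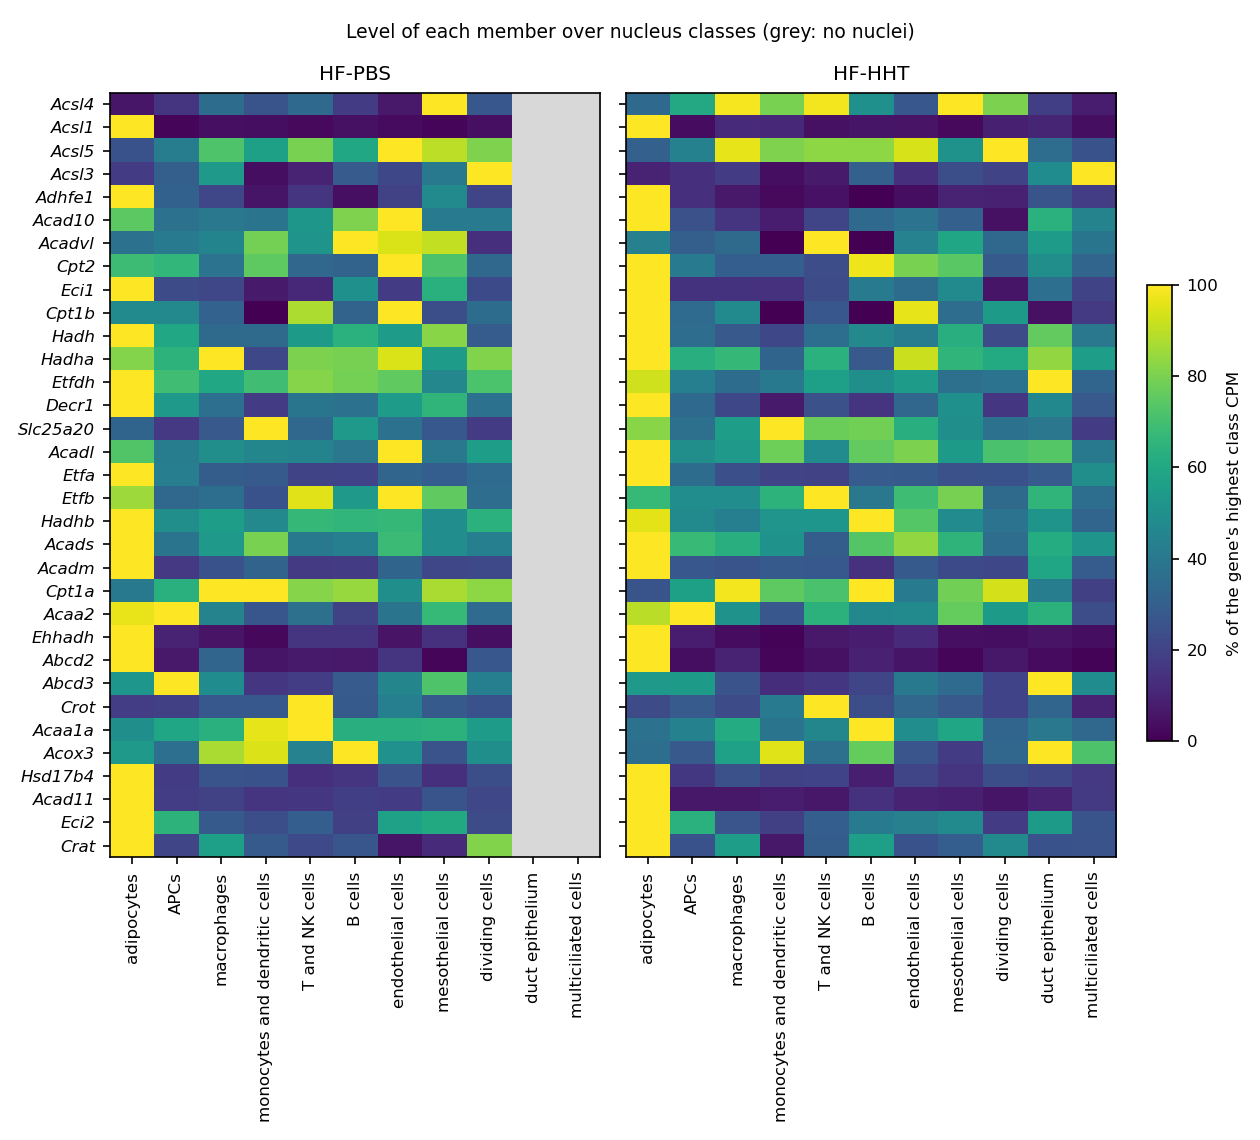
Level of each member over classes of nuclei as percent of that gene's highest CPM among the classes drawn, for HF-PBS (left) and HF-HHT (right); grey marks the 2 classes with 0 nuclei in HF-PBS, and perivascular and erythroid nuclei are not drawn. Acsl1, Ehhadh, Abcd2, Hsd17b4 and Acad11 are brightest in adipocytes in both. Acsl4 is brightest in mesothelial cells in HF-PBS, while in HF-HHT mesothelial cells and macrophages are not apart.

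In APCs the members called higher were near the general share. Of 33 measured, 9 were called higher and 0 lower, against 22.7% and 8.29% of 12173 genes, and the median ratio was 0.29 against 0.16 over all genes. Adhfe1 was at 10.4 and 45.5 CPM, a log2 ratio of 2.13 from 1.66 to 2.62. Acsl1 was at 24.3 and 85.2 CPM, a ratio of 1.81 from 1.49 to 2.14, and Ehhadh at 7.83 and 25.5 CPM, a ratio of 1.70 from 1.12 to 2.30. All 3 were higher in HF-HHT, and in all 3 the free RNA of that library was also higher. Among markers of other cells in APCs, 12 adipocyte markers summed to 1542 and 1817 CPM and 10 erythroid markers to 44.6 and 249 CPM, and their part was not tested.

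Free RNA moved with these values. It held Acsl1 at 214 (HF-PBS) and 886 CPM (HF-HHT), Adhfe1 at 12.0 and 112 CPM, Ehhadh at 18.1 and 121 CPM and Abcd2 at 117 and 356 CPM, while its median over all genes differed by a log2 ratio of 0.24. With the estimated free RNA subtracted, 2 members stayed higher in APCs and 7 were lower, against 21.7% and 14.98% of all genes. In HF-HHT APCs the estimate came to 173% of the Acsl1 UMIs counted and to 167% of those of Abcd2, so it was larger than the counts, and it exceeded 50% for 9 members. Acsl1, Ehhadh, Abcd2 and Acadvl then had log2 ratios of −1.48, −0.07, −3.25 and −0.08, those of Acsl1 and Abcd2 being bounds set by a floor of 3 UMIs.

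At the 1.5-fold limit, Crot and Adhfe1 were the only members called higher in APCs under every alternative, and of these Crot lost the call at 2-fold. Crot was at 16.4 (HF-PBS) and 29.5 CPM (HF-HHT) (84 and 81 UMIs), a log2 ratio of 0.84 from 0.38 to 1.30. For Adhfe1, 10.2 and 32.2 CPM were left after subtraction. The other calls in APCs were Etfb at 1.004, Acads at 0.85, Acad10 at 0.70, Acadvl at 0.69 and Abcd2 at 0.65, each below 100 UMIs in HF-HHT. Acaa2 (−0.41, from −0.70 to −0.13) and Abcd3 (−0.24, from −0.42 to −0.05) had intervals below 0 but did not reach 1.5-fold.

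In macrophages 9 members were called higher and 1 lower, against 25.8% and 8.36% of 14369 genes. The median ratio of the members was 0.09 and that of all genes 0.16, so as a set they were not above the general level of this class. Acsl1 was at 68.5 (HF-PBS) and 319 CPM (HF-HHT) (1474 and 3410 UMIs), a log2 ratio of 2.22 from 2.13 to 2.31. With free RNA subtracted it was at 57.9 and 277 CPM, and an Acsl1 UMI was in 21.6% of thinned HF-PBS macrophages and 44.3% of thinned HF-HHT macrophages, 28.0% and 47.7% unthinned.

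Markers of other cells moved with these values in the macrophage class. The 12 monocyte or dendritic markers summed to 372 and 605 CPM, 6 neutrophil markers to 45.2 and 186 CPM (3 and 5 detected) and 10 erythroid markers to 6.41 and 173 CPM (5 and 10 detected). Their part in the differences of the members was not tested.

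Acsl1 was higher in HF-HHT in 6 of 6 macrophage sub-clusters, with log2 ratios from 0.63 to 2.56. The largest difference was in sub-cluster 2, led by Chil3 and Clec4e among others, at 102 and 602 CPM, which held 336 HF-PBS and 788 HF-HHT nuclei. The smallest was in sub-cluster 9, at 58.8 and 91.3 CPM. Over all 11 classes with nuclei in both libraries, Acsl1 was measured and higher in 11, from 0.61 in adipocytes to 2.30 in the erythroid class, whose HF-PBS nuclei are doubtful. In APCs the ratio turned to −1.48 with free RNA subtracted, a bound set by the floor. Next after the erythroid class was 2.27 in monocytes and dendritic cells. Adhfe1 was measured in 6 classes and higher in 6, from 0.98 to 3.31. Acsl1 and Adhfe1 were higher in the free RNA of HF-HHT as well, by log2 ratios of 2.05 and 3.22, and the part of free RNA in the other classes was not tested.

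The other classes with nuclei in both libraries held fewer UMIs. Mesothelial cells had 9 of 32 measured members called higher and 1 lower, against 24% and 13.2% of all genes. The lower one was Acsl4, at 521 (HF-PBS) and 169 CPM (HF-HHT), a log2 ratio of −1.62 from −1.82 to −1.43, from 653 and 328 UMIs. This was opposite in sign to Acsl4 in adipocytes. In T and NK cells 5 of 28 were higher and 0 lower (20.9% and 7.44% of all genes), led by Acadvl at 3.64 and 15.7 CPM from 5 and 16 UMIs. In dividing cells 3 of 30 were higher and 4 lower (19.6% and 9.67%), and Acsl3 was among the lower ones, at 51.5 and 16.5 CPM, as in macrophages.

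In endothelial cells 4 of 27 were higher and 0 lower, against 22.9% and 9.93% of all genes, with Ehhadh at 4.43 and 39.9 CPM from 2 and 40 UMIs. Monocytes and dendritic cells had 5 of 13 higher and 1 lower (19.5% and 13.8%), the lower one being Slc25a20. The smallest samples were B cells, with 46 nuclei in HF-HHT, the erythroid class, with the 51 doubtful nuclei in HF-PBS, and perivascular cells, with 28 and 30. They had 13 of 26, 7 of 20 and 2 of 4 higher, against 26.7%, 32.7% and 19.7% of all genes, and 3, 2 and 1 lower, against 20%, 28.6% and 24.7%. Of the 13 members higher in B cells, Abcd2 alone had an interval above 0, from 0.50 to 3.13.

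Other synthetases took different directions in macrophages. Acsl3 was the member called lower, at 27.9 (HF-PBS) and 14.2 CPM (HF-HHT) (601 and 152 UMIs), a log2 ratio of −0.98 from −1.24 to −0.72. It was lower in 4 of 6 macrophage sub-clusters and higher in 1, sub-cluster 15, led by Cd209 genes and Lyve1, at 12.5 and 28.5 CPM. Acsl5 was called higher, at 45.0 and 70.6 CPM, and its largest ratio, 0.98, was again in sub-cluster 2, at 50.9 and 101 CPM. Acsl4 was at 184 and 167 CPM, a ratio of −0.14 from −0.22 to −0.06. The call of Acsl3 in macrophages was lost with a 2-fold limit and where classes were set by the share of marker UMIs.

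The remaining calls in macrophages were small in UMIs or in size. Adhfe1 was at 7.16 and 22.1 CPM, a log2 ratio of 1.63 from 1.33 to 1.93. Etfb was at 7.995 and 14.95 CPM, a ratio of 0.90 from 0.58 to 1.22, and Acaa1a at 13.4 and 22.4 CPM, a ratio of 0.74 from 0.49 to 0.997. These 3 were higher in HF-HHT, and at the 1.5-fold limit Etfb and Adhfe1 kept the call under every alternative, as did Acsl1, while at 2-fold Etfb lost it. Ehhadh was at 4.51 and 10.7 CPM, but free RNA was estimated at 76.7% of its HF-HHT UMIs, and its ratio of 1.25 went to −0.39 with free RNA subtracted. Acadvl, Cpt1b and Eci1 were called higher at 0.78, 0.73 and 0.70.

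The peroxisomal transporters were not higher in HF-HHT macrophages. Abcd2 was at 106 (HF-PBS) and 91.4 CPM (HF-HHT) in macrophages, a log2 ratio of −0.22 from −0.33 to −0.11. By sub-cluster it was at 162 and 94.6 CPM in sub-cluster 0 and at 180 and 106 CPM in sub-cluster 2, and at 43.0 and 70.2 CPM in sub-cluster 9, so its direction was mixed. Abcd3 was at 73.3 and 59.7 CPM, a ratio of −0.30 from −0.43 to −0.16. Cpt1a was at 164 and 191 CPM, a ratio of 0.22 from 0.14 to 0.30, under the limit.

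Genes around the pathway were read from 5 further lists, whose members were chosen with earlier results of these libraries known. Their counts stand beside the shares of all genes called higher and lower, 35.6% and 12.2% in adipocytes, 22.7% and 8.29% in APCs and 25.8% and 8.36% in macrophages. In adipocytes, 12 of 18 measured other oxidation enzymes were called higher and 2 lower, with a median of 0.75, and in APCs and macrophages 5 of 16 and 1 of 18 were higher and 1 and 1 lower. Echs1, the short-chain hydratase, was at 9.96 and 24.4 CPM, and Acat1, a thiolase of ketone bodies and of isoleucine breakdown, at 71.8 and 158 CPM. Eci3, another isomerase, was at 0 and 4.03 CPM, at least 1.36 higher on the log2 scale against a floor of 3 UMIs. Acss1, the mitochondrial acetate-activating enzyme, was lower at 59.7 and 13.1 CPM, Hsd17b10 was at 3.14 and 1.71 CPM from 6 and 17 UMIs and was also called lower, and Acot2 at 3.67 and 2.52 CPM did not reach the limit.

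Other peroxisomal lipid enzymes were called higher for 9 of 20 and lower for 0 in adipocytes (35.6% and 12.2% of all genes), with a median of 0.39, near the 0.31 of all genes. Hacl1, a lyase of alpha-oxidation, was at 29.9 and 90.3 CPM, Gnpat, the first enzyme of ether lipid synthesis, at 69.7 and 184 CPM, and Acot4, a thioesterase for dicarboxylic chains, at 4.19 and 14.9 CPM. These 3 were higher in HF-HHT. Cat, the catalase that removes peroxide, was at 386 and 262 CPM, a ratio of −0.56, and Far1 and Abcd4 were at −0.21 and −0.17. The list had 3 of 17 higher and 1 lower in APCs, and 3 of 20 higher and 0 lower in macrophages.

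Of the genes that build peroxisomes, 8 of 16 were called higher and 1 lower in adipocytes (35.6% and 12.2% of all genes), with a median of 0.61. Pex10, a ligase subunit of the import machinery, was at 1.05 and 2.01 CPM, from only 2 UMIs in HF-PBS. Pex5l, a relative of the import receptor known best from nerve cells, was lower at 320 and 41.9 CPM, and it was also among the genes that led sub-cluster 8. Pex14, the docking protein, was at 293 and 213 CPM and Pex16 at 26.2 and 20.8 CPM, both under the limit. In APCs 3 of 14 were higher and 0 lower, and in macrophages 4 of 16 higher and 1 lower.

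Genes of entry and of malonyl-CoA, the metabolite that blocks Cpt1a, gave 6 higher and 1 lower of 15 in adipocytes, near the 35.6% and 12.2% of all genes, with a median of 0.39. Acacb, the carboxylase that makes malonyl-CoA at the mitochondrial surface, was at 184 and 681 CPM, a log2 ratio of 1.89 from 1.73 to 2.05, and Acaca, its cytosolic form, at 191 and 536 CPM. Mlycd, which breaks malonyl-CoA down, was at 12.1 and 28.1 CPM, so the makers and the remover of the metabolite were both higher. Prkab2, a subunit of AMP-activated kinase, was lower at 50.8 and 18.0 CPM, and the fatty acid transporter Slc27a1 and the carnitine transporter Slc22a5 were at −0.50 and −0.43. APCs had 6 of 15 higher and 0 lower, and macrophages 2 of 15 higher and 1 lower.

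Among regulators of the pathway, 7 of 23 were higher and 3 lower in adipocytes (35.6% and 12.2% of all genes), with a median of 0.20, which is below the 0.31 of all genes. Ppargc1a, a coactivator of mitochondrial genes, was at 4.19 and 16.8 CPM from 8 and 167 UMIs, a log2 ratio of 2.004 from 0.99 to 3.24, and Ppargc1b, its relative, at 31.4 and 88.5 CPM. Esrrg, an orphan receptor they work with, was at 38.8 and 112 CPM, and Esrra at 38.8 and 58.5 CPM. Those 4 were called higher, Esrra only just past the limit, and TMM factors leave it under the limit. Ppara, the receptor that drives oxidation genes in liver, was at 69.2 and 60.0 CPM, and Pparg, the master regulator of fat cells, at 1858 and 2280 CPM, both under the limit. Foxo1 at 825 and 495 CPM and Rxra at 94.9 and 57.3 CPM were lower. In APCs 3 of 23 were higher and 0 lower, and in macrophages 6 of 23 higher and 2 lower.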

How the data were processed

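Nuclei sorted by DAPI from frozen epididymal WAT were profiled by 3′ droplet single-nucleus RNA sequencing. The authors made the deposited counts, unfiltered UMIs of each gene in each barcode, by Cell Ranger 5.0.0 and mm10 per the labels. The file headers and the study's reporting summary name other versions of Cell Ranger. No source used here says whether introns and strand entered the counts. Above depth cuts of 5618 (HF-PBS) and 5382 UMIs (HF-HHT), 3124 and 3074 barcodes were called as nuclei by depth, without a test. The other barcodes with at least 500 UMIs (5824 and 5384) were tested against free RNA (barcodes ranked 45000 to 90000). That test used a false discovery rate of 0.01 and 10000 simulations. Scrublet in scanpy 1.11.5 set an automatic limit that marked 0 and 245 barcodes, so the highest scores were removed instead at 0.8% per 1000 nuclei called (479 and 463). Nuclei needed over 400 genes, values below the 95th percentile of UMIs and genes, and under 0.5% mitochondrial UMIs. Seurat 5.3.0 integrated both libraries (2000 variable features, 30 dimensions), leaving out the members and lists, and clusters were named from markers.

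UMIs were summed per class, with exact Poisson, conditional binomial and binomial intervals (Python 3.11.15, scipy 1.17.1, numpy 2.4.6, pandas 2.3.3), and checked on simulated data. TMM factors came from edgeR 4.0.16 (R 4.3.3). A library at 0 was set to a floor of 3 UMIs. Every member could be named, and of each further list up to 3 highest and 3 lowest ratios in adipocytes, besides Ppara, Pparg, Ppargc1a, Esrra and Acacb. Some genes of these lists, and 1 list, are not reported here. The members, lists and motifs were chosen with earlier results of these data known.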

Additional observations from a re-analysis of the deposited data

Results flagged for a closer look

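Some members had log2 ratios of HF-HHT over HF-PBS of opposite sign in different classes, with both intervals away from 0. Acsl4 was at 0.88 in adipocytes and −0.14 in macrophages, and Hadha at 0.66 and −0.22. Abcd2 was at 1.504 in adipocytes and 0.65 in APCs, against −0.22 in macrophages. In HF-HHT APCs the estimated free RNA exceeded the Abcd2 UMIs counted. The APC ratio of −3.25 after subtraction was thus a bound set by the floor, and the sign of Abcd2 in APCs stays unsettled. Abcd3 was at 0.68 in adipocytes, −0.24 in APCs and −0.30 in macrophages. These differences between classes were not tested, since each group is 1 library.

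Other members had their highest level of HF-HHT in clusters without a nucleus in HF-PBS. Acsl3 was at 79.6 CPM in multiciliated cells. In duct epithelium Etfdh was at 48.7 CPM, Acox3 at 79.8 CPM and Abcd3 at 234 CPM.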

How the results depend on the processing

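No paired analysis was possible because each group is 1 library. The counts of members called depended on scaling, the fold limit and free RNA. TMM factors shift all ratios by −0.19 in the 3 classes and size factors from medians of ratios by −0.21 or −0.22. In adipocytes the 17 members called higher became 10 with TMM factors, 10 with size factors, 9 with a 2-fold limit and 9 relative to the median of all genes (an alternative chosen after seeing the data), and the 0 called lower became 1, 2 and 2 with TMM, size factors and that median. In the same order, 28.5%, 27.3%, 20.8% and 23.9% of all genes were higher, and 16.6%, 17.5% and 20.5% lower. In APCs the 9 called higher became 4 with a 2-fold limit and 2 with free RNA subtracted, and the 0 called lower became 2 with TMM factors, 2 with size factors, 7 with free RNA subtracted, and 1 each with no upper limits, with classes set by marker share and relative to the median. In the same order, 10.4% and 21.7% of all genes were higher, and 12.5%, 13.4%, 14.98%, 8.45%, 7.99% and 11.9% lower. In macrophages the 9 called higher became 4 with TMM factors, 4 with size factors, 3 with a 2-fold limit and 5 relative to the median, and the 1 called lower became 0 with a 2-fold limit and 0 with classes by marker share. In the same order, 18.6%, 18.2%, 13.98% and 19.6% of all genes were higher, and 3.95% and 8.15% lower. The mitochondrial median of 0.59 in adipocytes became 0.28 relative to the median of all genes. With free RNA subtracted, ratios changed sign for Acsl1 (−1.48), Abcd2 (−3.25), Acadvl (−0.078) and Ehhadh (−0.072) in APCs and for Ehhadh (−0.39) in macrophages. Those of Acsl1 and Abcd2 are bounds set by the floor of 3 UMIs, since the estimate exceeded their counts, and they settle no sign. Members under 100 UMIs in HF-PBS adipocytes are limited by depth, as the width of their intervals shows.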
